A study of Mus musculus with 5 samples.

Results

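Cathepsins are the proteases of the lysosome, and Lamp1 and Lamp2 are the heavily glycosylated proteins that make up much of its limiting membrane. The 9 genes described here are the cysteine cathepsins Ctsl, Ctsb, Ctsk, Ctss, Ctsh and Ctsc, the aspartic protease Ctsd, and Lamp1 and Lamp2. They were taken by name from the 54232 genes measured. The set was chosen by the values of Ctsl, which were higher in the mutant cultures of these same data, so the values of Ctsl are given as a description with no test, and the question put to the other 8 members and to 175 further lysosomal genes was whether they moved with it.

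The samples were primary myoblasts, the precursors of muscle fibers, taken from leg muscle of mice, purified with a magnetic satellite cell kit and beads against integrin α7, steps meant to leave other cell types behind, and kept for 72 h in low serum, which makes them exit the cell cycle and fuse into myotubes. ELMO2 is a scaffold that couples surface receptors to the RAC activator DOCK1, and in Elmo2EID/EID animals (EID) a knock-in amino acid substitution in the autoinhibitory domain of ELMO2 favors the open conformation of the protein. Both genotypes were on a mixed C57BL6 and 129SV background, the allele was present in all cells of the mouse, and there were 3 WT and 2 EID cultures. The mice were 6 to 8 weeks old when their muscles were taken. The labels number the cultures without saying that each came from its own animal, so the p-values below measure the spread between these samples.

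Cathepsins are made as inactive precursors, are carried to the lysosome largely by mannose 6-phosphate receptors, and mature in its acidic lumen, which the V-ATPase maintains. Many lysosomal genes share a promoter element with the core CACGTG, which is bound by the transcription factors TFEB, TFE3 and MITF when lysosomes are made. In muscle, lysosomes clear damaged organelles through autophagy, and lysosomal cathepsins have long been studied in myoblast fusion and in muscle wasting.

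Because of that shared element, the promoters of the members were searched for it. RefSeq (GRCm38.p6) promoters, running from 250 bases before to 50 bases after the start of transcription, were found for 7 of the 9 members, all but Ctsb and Ctsh. The letters CACGTG, which read the same on both strands, were in 7.15% of all 32851 such promoters. The longer form GTCACGTG, which contains the shorter one and was searched on both strands, was in 2.25%. The 3 stretches printed here hold the CACGTG matches of Lamp1, the nearer of the 2 matches of Ctsd and the single match of Ctsl, with the matches in capitals. They lie at chr8:13159095-13159154 (plus strand), chr7:142387908-142387937 (minus strand) and chr13:64370739-64370768 (minus strand).
Lamp1: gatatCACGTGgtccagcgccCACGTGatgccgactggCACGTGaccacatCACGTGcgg
Ctsd: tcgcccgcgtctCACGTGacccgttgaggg
Ctsl: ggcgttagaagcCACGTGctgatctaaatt

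Lamp1 held 4 matches, whose first bases lay 61, 45, 28 and 15 bases before the start, and Ctsd held 2, at 245 and 98 bases before it. The longer GTCACGTG was found 2 times in the promoter of Ctsd and 1 time in that of Lamp1. The match of Ctsl began 236 bases before its RefSeq start and was not part of a GTCACGTG. By the gene positions given below, which are from GENCODE, the printed stretches of Ctsl and Ctsd lie inside their genes. For these 2 genes the distances therefore hold for the RefSeq start only. The promoters of Ctsk, Ctss, Ctsc and Lamp2 held 0 matches in this window. A match is a run of letters and not a measured binding site.

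Depth ranged from 35021856 to 49381544 reads per sample. A single read was worth 0.884 to 1.24 normalized counts, the read count divided by a size factor for the sample. In all, 18156 genes reached 5 normalized counts in at least 1 sample and were tested with limma on log2(normalized count + 1), and 404 of them passed an adjusted p of 0.05, 197 higher and 207 lower in EID. Muscle markers were abundant in all cultures, with 395823 to 602709 normalized counts of Myh3, the embryonic myosin heavy chain, and 458389 to 518055 of Acta1, skeletal actin. Their 10-gene sum ranged from 1866888 to 2142463 in WT and was 1823588 and 2223291 in EID. In such cultures, fewer cells of a type and less RNA per cell cannot be told apart.

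In WT, levels divided by transcript length put Lamp1 first, at 14466 normalized counts per kb, followed by Ctsd at 9944, Ctsl at 4942, Ctsb at 2493 and Lamp2 at 2242. Ctsh (364), Ctsc (276), Ctsk (57.7) and Ctss (4.21) came after them. The WT ranges of Ctsb and Lamp2 overlapped on this scale, but Ctsb was the higher in each WT sample, narrowly so in WT 1 (2204 to 2183). The ranges of Ctsh and Ctsc overlapped as well, and Ctsc was the higher in WT 2, so the order of this pair was not resolved. The other neighbours in the order did not overlap. Reads from 671 bases that Ctsd shares with the gene Gm49369 may have gone uncounted, so its place after Lamp1 is less certain. The length used was that of the longest transcript paired with a RefSeq mRNA. With the union of all annotated exons instead, Ctsl (1501) came after Ctsb (1954). Together the 9 genes took 0.184% to 0.2002% of all reads in WT, and 0.218% and 0.197% in EID 1 and EID 2.

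**Figure D1:**
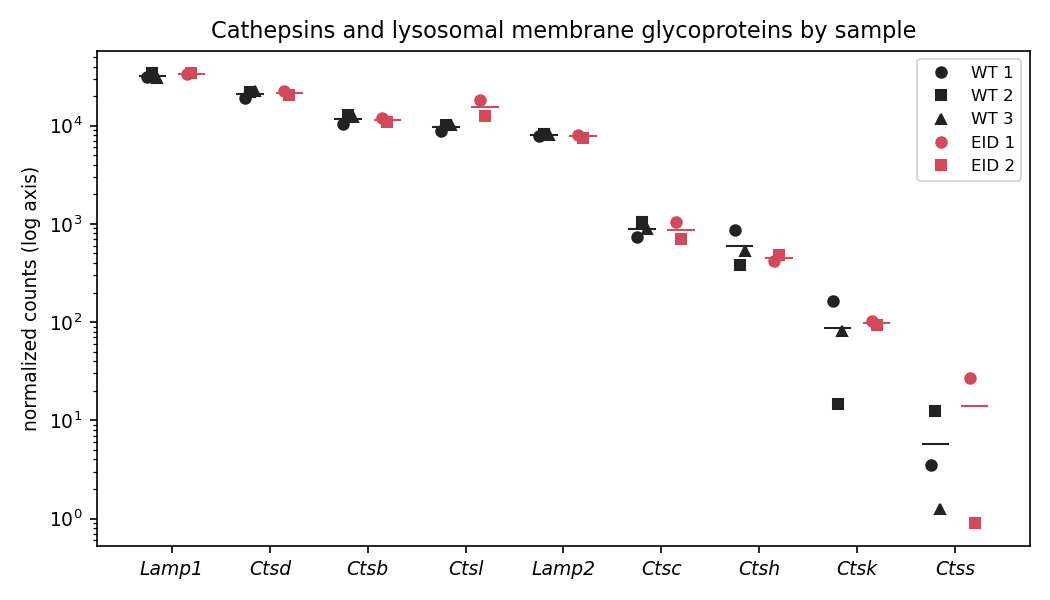
Normalized counts of the 9 members in each sample, on a log axis, ordered by their mean level. Black symbols are the 3 WT and red symbols the 2 EID cultures, and bars are group means. Ctsl is the single member whose 2 EID samples both lie above all WT samples, and Ctsk and Ctss spread widely within a genotype.

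Ctsl, a broad-specificity endopeptidase, lies on the minus strand at chr13:64359337-64370890. Its normalized counts were 8832, 10240 and 10152 in WT and 18281 and 12419 in EID. Both EID samples were above all WT samples, and the 2 EID samples were further apart (1.47-fold) than the highest and lowest WT samples (1.16-fold). The WT mean was 9741 ± 789 (SD, n = 3) and the EID mean 15350 ± 4145 (SD, n = 2), a ratio of 1.58. On the log2 scale the difference was 0.63 (SE 0.16). It was 0.35 without EID 1 and 0.91 without EID 2, and lay between 0.56 and 0.67 when a WT sample was left out. EID 2 alone was 1.21 times the highest WT sample. Ctsl took 11.1% to 11.9% of the reads of the 9 members in WT, and 19.0% and 14.3% in the EID samples.

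Genes near Ctsl and the related genes of its chromosome were looked at next. Of the 10 genes tested within 500 kb of it, 0 passed with limma, edgeR or DESeq2, and 1 had an unadjusted limma p under 0.05. Over all genes tested, these tools called 2.23%, 2.25% and 5.56%, and 15.2% had an unadjusted limma p under 0.05. The placental cathepsins, a rodent cluster on the same chromosome that ends 2.79 Mb from Ctsl, were nearly silent, and all 9 were at 2 reads or fewer in all samples. Their neighbours Ctla2a and Ctla2b encode proteins related to the cathepsin propeptide, which inhibits cathepsin L. Ctla2a was at 121, 19.1 and 77.1 normalized counts in WT and 148 and 263 in EID. The EID samples of Ctla2a were the highest, but the difference of 1.78 (SE 0.72) did not pass (adjusted p = 0.311). It was 1.02 without WT 2 and 1.37 without EID 2, and between 2.00 and 2.32 when another sample was left out. The lowest value in WT 2 and the highest in EID 2 were shared by endothelial markers such as Emcn, whose values are given further on, and their part in the Ctla2a values was not tested. Ctla2b was at or under 8.96 normalized counts in all samples and reached the filter of 5 through EID 2 alone.

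None of the other 8 members passed the test, against 2.23% of all genes tested (1.09% higher and 1.14% lower in EID). The count was also 0 at an unadjusted p under 0.05, which 15.2% of all genes reached, and 0 with edgeR and with DESeq2 on the recovered reads. The groups overlapped in all 8, whereas they were separate in 32.6% of all genes tested. The median log2 difference of the 8 was -0.01, beside 0.01 over all genes tested. The intervals set how far this goes, and they were narrow for the abundant members and wide for the scarce ones.

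**Figure D2:**
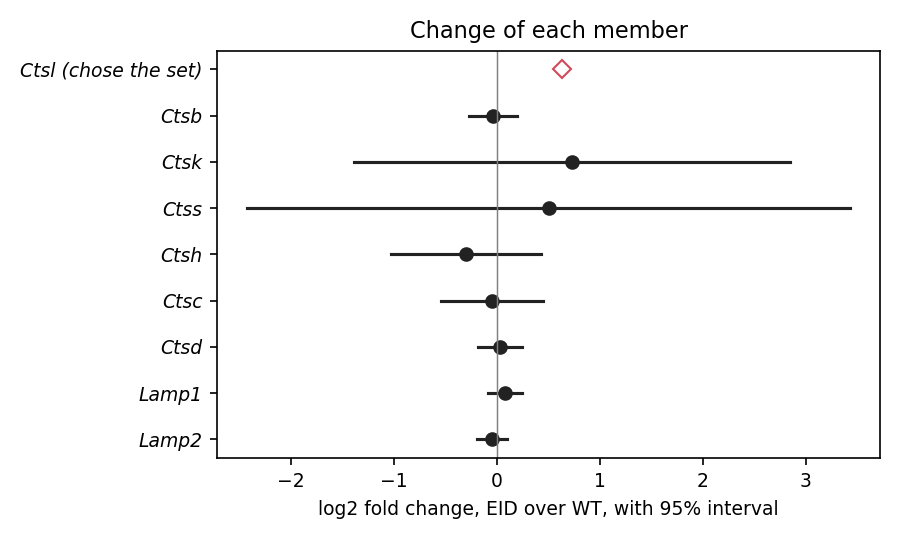
Log2 fold change of each member, EID over WT, in the limma fit across all genes. Points are estimates and bars 95% intervals for the 8 members tested, all of which include 0. The open diamond is Ctsl at 0.63, which chose the set and has no interval. Intervals run from -0.20 to 0.09 for Lamp2 and from -2.43 to 3.43 for Ctss.

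Among the cysteine proteases, Ctsb is the nearest to Ctsl in level and, like it, cleaves proteins within the chain. It is at chr14:63122462-63145923. Its normalized counts were 10454, 12828 and 12196 in WT and 11878 and 11024 in EID. The EID samples were inside the WT range, and the log2 difference was -0.04 (95% interval -0.27 to 0.19, adjusted p = 0.885). Fdft1 overlaps its end on the other strand over 774 bases. The reads were counted by strand, and Fdft1 itself was at 1645 to 2038 normalized counts.

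Ctsh and Ctsc are mainly exopeptidases. Ctsh trims amino termini, and Ctsc removes dipeptides and activates serine proteases of immune cells. Ctsh (chr9:90054152-90076089) was at 859, 385 and 525 normalized counts in WT and 418 and 487 in EID. WT 1 stood above the other 4 samples, and the log2 difference of -0.31 (95% interval -1.03 to 0.42, adjusted p = 0.709) was 0.01 without it. Ctsc (chr7:88278085-88310888) was at 728.0, 1053.3 and 886.3 in WT and 1042.8 and 693.9 in EID. Its EID samples sat near opposite ends of the WT range, with a log2 difference of -0.05 (95% interval -0.55 to 0.45, adjusted p = 0.942).

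Ctsk and Ctss lie side by side on chromosome 3, with 17423 bases between them. Ctsk is the collagen-degrading cathepsin of osteoclasts and is also made by fibroblasts. At chr3:95499256-95509362, it was at 165, 14.6 and 82.0 normalized counts in WT and 103 and 94.1 in EID. The EID samples were close to each other, while WT 1 was 11.3 times WT 2. The log2 difference of 0.73 (95% interval -1.39 to 2.85, adjusted p = 0.767) was -0.24 without WT 2. On the recovered reads it was 0.15 with edgeR and 0.17 with DESeq2. Of 10 markers of fibro-adipogenic progenitors, the connective tissue cells of muscle, 6 also had their lowest WT value in WT 2, while Lum was at 1 read or fewer and Dcn at 17.9 normalized counts or fewer in all samples. Pdgfra, their defining receptor, was at 758, 120 and 505 in WT and 275 and 542 in EID. The summed level of the 10 markers ran from 10386 to 12681 in WT and was 10161 and 9937 in EID, most of it Gsn. Of the 8 that could be tested, 0 passed with limma or edgeR. DESeq2 called 1 lower, Gsn (log2 difference -0.30 with limma, DESeq2 adjusted p = 0.00305). The median of the 8 was 0.63 and 7 were above 0. At an unadjusted limma p under 0.05, which 15.2% of all genes reached, were 3 of the 8, Gsn and, with higher values in EID, Cd34 (25.8 to 83.9 in WT, 117 and 175 in EID) and Dcn, which reached the filter of 5 normalized counts through EID alone. The lowest WT value also lay in WT 2 for all 12 endothelial and 6 of 8 Schwann markers, described further on. It did so for 3 of 12 macrophage, 1 of 6 osteoclast and 1 of 10 muscle markers. The part of fibro-adipogenic, endothelial or Schwann cells in the Ctsk values was not tested.

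Ctss, which processes the invariant chain of MHC class II in macrophages and dendritic cells, was close to the limit of detection. At chr3:95526786-95556403, it had 4, 11 and 1 reads in WT and 30 and 1 in EID, or 3.53, 12.3 and 1.24 normalized counts in WT and 26.8 and 0.90 in EID. In 3 reads, the limit that a count of 0 allows, there are 2.65 to 3.73 normalized counts. The highest and the lowest value were both in EID, and the log2 difference of 0.50 (95% interval -2.43 to 3.43, adjusted p = 0.892) was -1.44 without EID 1, and 1.26 with edgeR and 1.28 with DESeq2. Lyz2, the lysozyme of macrophages, was likewise highest in EID 1 and next in WT 2, at 6.18, 32.5 and 6.22 in WT and 134 and 4.48 in EID. C1qb, a complement gene of macrophages, was at 0, 5.61 and 0 in WT and 15.2 and 0 in EID. The sum of 12 macrophage markers was 140 to 174 in WT and 309 and 153 in EID, and 7 of the 12 had their highest value in EID 1. Itgam and Mrc1, the most abundant of them, did not, with 38.1 to 57.2 in WT and 25.04 and 39.45 in EID for Itgam, and 54.7 to 76.0 in WT and 73.3 and 87.0 in EID for Mrc1. Fcgr1 was at 0 throughout and Ptprc, the pan-leukocyte CD45, at 3 reads or fewer. The bead selection of the cultures is meant to remove such cells, and the part of macrophage RNA in the Ctss values was not tested.

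**Figure D3:**
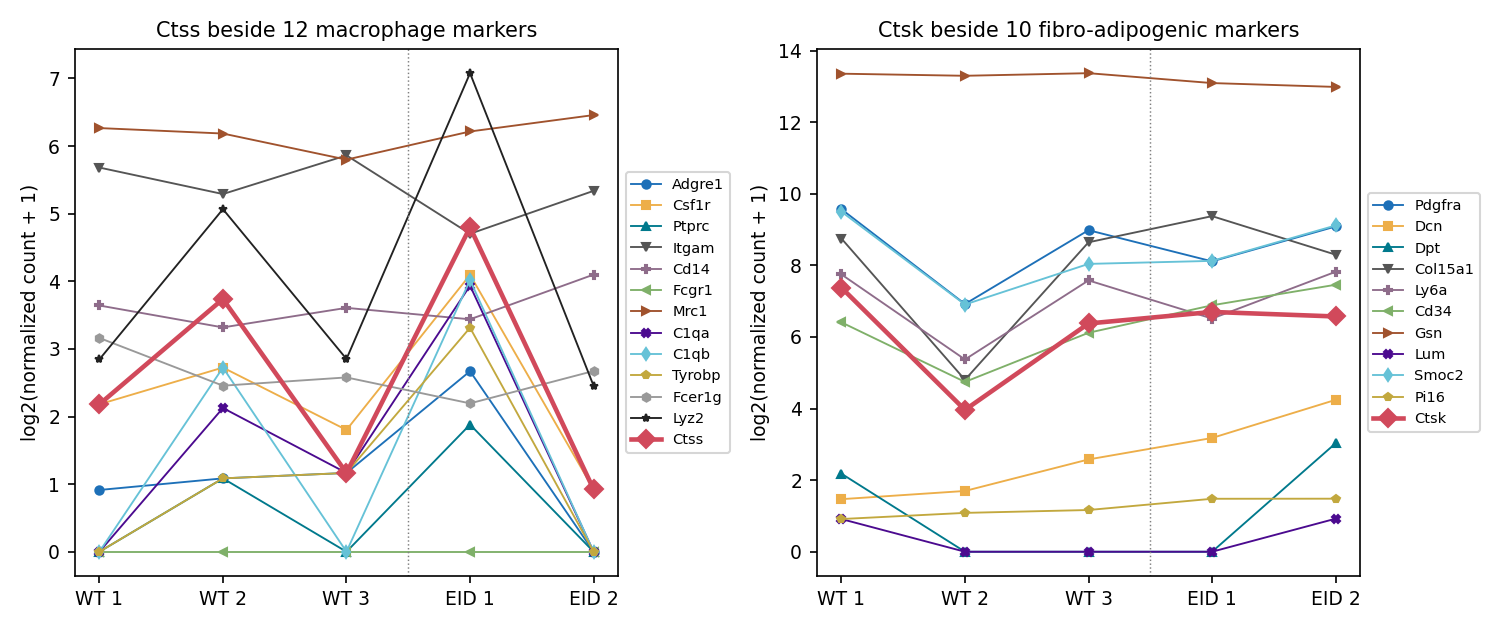
Ctss with the 12 macrophage markers (left) and Ctsk with the 10 fibro-adipogenic markers (right), as log2(normalized count + 1) in each sample. Lines join the values of 1 gene, and the dotted line parts WT from EID. Ctss and 7 of the 12 macrophage markers are highest in EID 1, and Ctsk and 6 of the 10 fibro-adipogenic markers have their lowest WT value in WT 2. So do all 12 endothelial and 6 of 8 Schwann markers, which are not drawn.

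Osteoclast markers bear on Ctsk as well. Dcstamp was at 0 and Calcr at 3 reads or fewer in all samples. The sum of the 6 osteoclast genes ran from 1183 to 1369 in WT and was 1253 and 1105 in EID, most of it Nfatc1, which muscle also expresses. Of the 4 that could be tested, 0 passed with limma, edgeR or DESeq2. An unadjusted limma p under 0.05, which 15.2% of all genes reached, was found for 2, Nfatc1 at a log2 difference of -0.27 and the integrin Itgb3 at 0.94.

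Ctsd, the aspartic protease of the set and its most abundant cathepsin, lies at chr7:142375911-142388038 on the minus strand. Its normalized counts were 19086, 21945 and 22419 in WT and 22466 and 20653 in EID. The highest sample was EID 1, by a small margin over WT 3, and the log2 difference was 0.03 (95% interval -0.18 to 0.24, adjusted p = 0.911). An annotated read-through transcript on the same strand, Gm49369, was at 1.79 normalized counts or lower. It overlaps Ctsd over 6757 bases, and 671 transcript bases are identical. The methods do not say how reads in shared exons were assigned, so this low value does not measure the level of Gm49369.

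The 2 membrane glycoproteins varied least. Lamp1 (chr8:13159161-13175338), whose promoter carries the 4 printed CACGTG runs, was at 31629, 34203 and 30904 normalized counts in WT and 33875 and 34062 in EID. Both EID values were below WT 2, with a log2 difference of 0.08 (95% interval -0.09 to 0.25, adjusted p = 0.682). Lamp2 (chrX:38401357-38456454, minus strand), the receptor of chaperone-mediated autophagy in 1 of its isoforms, was at 7869, 8311 and 8061 in WT and 8034 and 7560 in EID. The difference was -0.05 (95% interval -0.20 to 0.09, adjusted p = 0.759), and counts per gene do not separate its isoforms.

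Of the 175 other lysosomal genes, 156 could be tested, and 2 passed, both higher in EID, which is 1.28% beside 2.23% of all genes. At an unadjusted p under 0.05 there were 18 (11.5%, beside 15.2%), the groups were separate in 50 (32.1%, beside 32.6%), and the log2 difference was above 0 in 74. Their median was -0.01. Both genes that rose are on the list of lysosomal membrane proteins, of which 24 could be tested. In that list the median was -0.00 and 11 of the 24 differences were above 0. Cd63, a tetraspanin of late endosomes, had both EID samples below all WT samples without passing (-0.26, adjusted p = 0.272), and was named after its values were seen.

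Scarb2 (LIMP-2), on chromosome 5, encodes an abundant glycoprotein that spans the lysosomal membrane. It was at 6145, 6276 and 6220 normalized counts in WT and 8386 and 9277 in EID. The 3 WT samples were nearly level and both EID samples lay above them. The log2 difference was 0.51 (SE 0.07, adjusted p = 0.0159 with limma, 0.0161 with edgeR and 4.36e-08 with DESeq2). The order of the 2 EID samples was the opposite of that of Ctsl. The RefSeq promoter of Scarb2 at chr5:92505608-92505907 held 0 CACGTG matches. It lies inside the annotated gene (chr5:92441314-92506833, minus strand), so this 0 does not cover the annotated start.

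Laptm4b, on chromosome 15, encodes a small membrane protein of late endosomes and lysosomes linked to leucine uptake and sphingolipid traffic. It was at 873, 897 and 1039 normalized counts in WT and 1578 and 1355 in EID. Both EID samples lay above WT, with EID 1 the higher as for Ctsl. The log2 difference was 0.65 (SE 0.11, adjusted p = 0.0385 with limma, 0.0349 with edgeR and 6.98e-05 with DESeq2).

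The calls of both genes depended on single samples and on the fit, while their log2 differences stayed between 0.43 and 0.76. The adjusted p of Scarb2 was 0.0887 without WT 1, 0.0595 without WT 2, 0.0605 without EID 1 and 0.14 without EID 2. For Laptm4b it was 0.145, 0.112, 0.218 and 0.18 in the same order. Without WT 3 both calls held (0.0381 and 0.0319). With no filter on low values the adjusted p was 0.0527 for Scarb2 and 0.124 for Laptm4b, and without the mean-variance trend of limma it was 0.12 and 0.164.

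**Figure D4:**
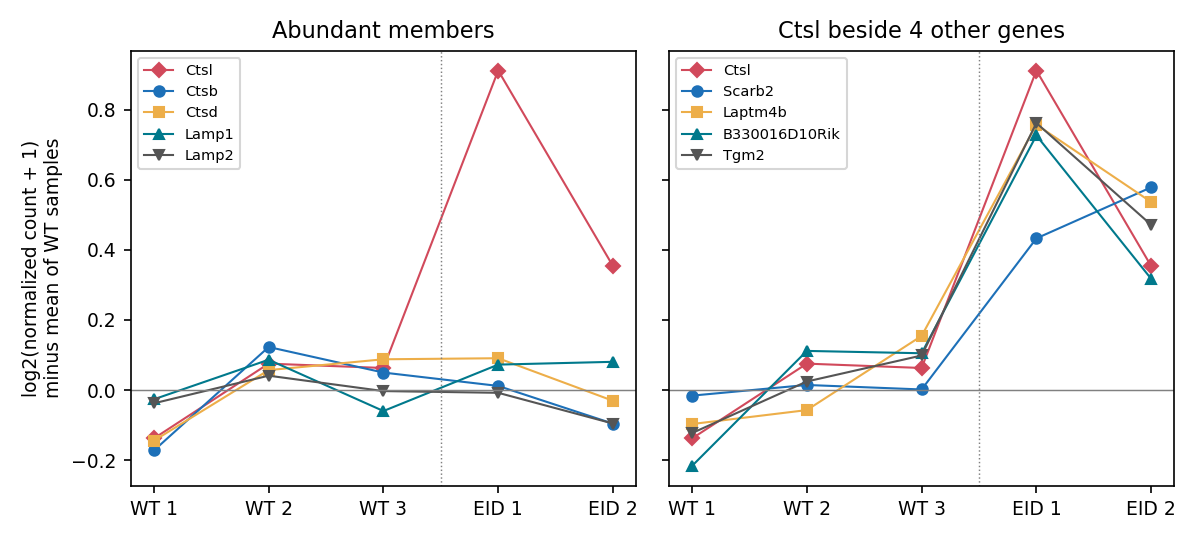
Log2(normalized count + 1) in each sample, less the mean of the 3 WT samples, for the 5 most abundant members (left) and for Ctsl with Scarb2, Laptm4b and the 2 genes nearest to it in profile (right). Lines join the values of 1 gene and the dotted line parts WT from EID. On the left, Ctsl leaves the other members in EID 1 and, less so, in EID 2. On the right, Scarb2 is higher in EID 2 than in EID 1, unlike the other 4 genes.

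By role, the remaining lists gave 0 calls each with limma and with edgeR. At an unadjusted limma p under 0.05 there were 6 of 40 hydrolases, 2 of 17 V-ATPase subunits, 2 of 17 genes of nutrient sensing, 1 of 22 of sorting, 1 of 16 of autophagy, 1 of 8 of exocytosis, 0 of 6 other cathepsins and 0 of 4 inhibitors, where 15.2% of all genes reached it. Ctla2a, described above, reached it too. Among the other cathepsins and legumain, 6 of 8 were measured. Lgmn, the asparaginyl endopeptidase that processes several cathepsins, was at 9057 to 10126 normalized counts in WT and at 9914 and 9141 in EID (log2 difference -0.02, adjusted p = 0.925). Ctsa, the protective protein of β-galactosidase, was at 4317 to 4666 in WT and at 4839 and 4141 in EID (-0.02, adjusted p = 0.934). Of the cathepsin inhibitors 4 of 8 were measured. Serpinb6a was above all WT samples in both EID samples without passing (0.14, adjusted p = 0.48). Cstb was below all WT samples in both, also without passing (-0.20, adjusted p = 0.335). Cystatin C, Cst3, differed by -0.02 (adjusted p = 0.968).

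Among 40 hydrolases and activators the median difference was -0.09. Psap, the precursor of the saposins, was at 20670 to 21995 in WT and at 20841 and 20745 in EID, a difference of -0.04 (adjusted p = 0.813). Gaa, the glycogen-degrading α-glucosidase, differed by -0.12 (adjusted p = 0.48). DESeq2, which called 5.56% of the genes it tested, called 2 genes of this list lower, Manba at -0.71 (adjusted p = 0.00676) and Arsb at -0.55 (adjusted p = 0.0164). These enzymes, which degrade mannose-linked glycans and dermatan sulfate, were named after their values were seen, and limma gave 0.0739 for each.

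The V-ATPase acidifies the lysosome, and the sorting genes supply it with enzymes. The 17 measured V-ATPase subunits had a median of -0.03, with -0.09 for Atp6v1e1 (adjusted p = 0.5) and 0.08 for Atp6v1d (adjusted p = 0.75). Of the 22 sorting genes, with a median of 0.05, the mannose 6-phosphate receptor Igf2r differed by -0.13 (adjusted p = 0.504) and the adaptor Gga2 by -0.11 (adjusted p = 0.573).

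Among 17 genes of the TFEB family and of nutrient sensing at the lysosome, the median was 0.04. Rragd, a Rag GTPase that recruits mTORC1 to the lysosome, was at 8642, 7823 and 9736 in WT and 11352 and 10911 in EID. Both EID samples were above WT, and the difference of 0.36 (SE 0.10) did not pass with limma (adjusted p = 0.14) but did with DESeq2 (adjusted p = 0.0367). Of the factors that bind CACGTG, Tfeb differed by 0.07 (adjusted p = 0.848), Mitf by 0.23 (adjusted p = 0.382) and Tfe3 by -0.22 (adjusted p = 0.254). Both EID samples of Tfe3 were below all WT samples, and it was with Rragd the other gene of the list at an unadjusted p under 0.05. Mtor itself differed by -0.02 (adjusted p = 0.937).

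The 16 autophagy genes had a median of 0.02, with the cargo receptor Sqstm1 at 0.03 (adjusted p = 0.889) and Wipi1 at -0.03 (adjusted p = 0.94). The 8 genes of lysosomal exocytosis had a median of -0.05, with the SNARE proteins Stx4a at 0.06 (adjusted p = 0.737) and Snap23 at 0.01 (adjusted p = 0.945).

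**Figure D5:**
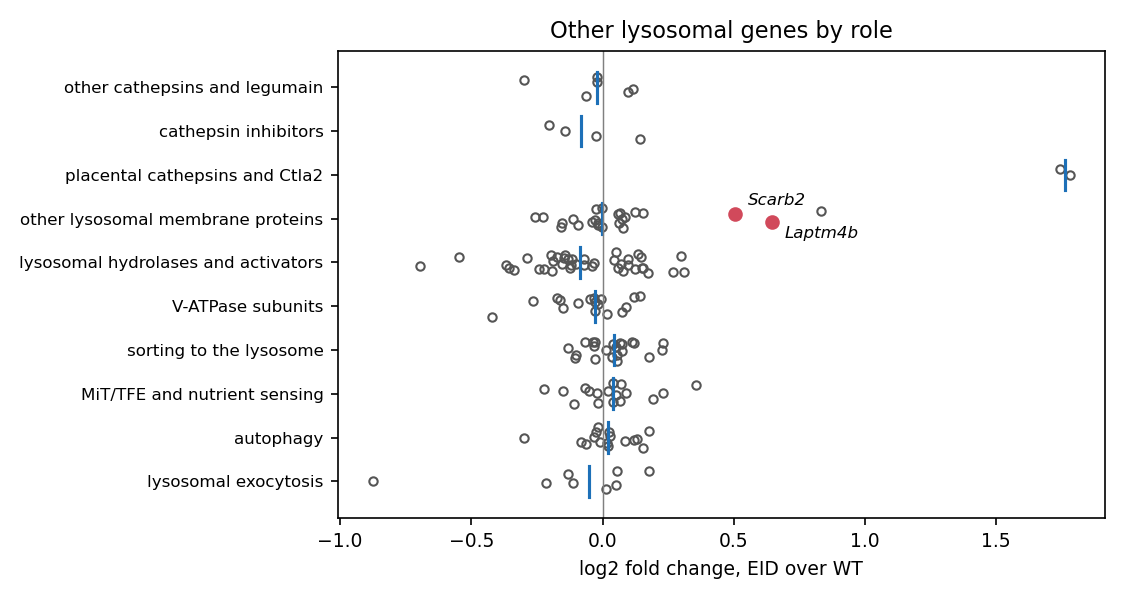
Log2 fold change, EID over WT, of the 156 other lysosomal genes that were tested, by role. Each point is 1 gene, blue bars are medians, and the 2 filled red points are the genes that passed, Scarb2 and Laptm4b. Apart from the 2 measured genes of the placental cathepsin and Ctla2 row (Ctla2a and Ctla2b), the medians lie between -0.09 and 0.05.

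Markers of endothelial cells also differed in level between the cultures. The sum of 12 such genes was 1223, 396 and 1301 normalized counts in WT and 2988 and 4486 in EID, and the groups were separate in all 12, with 11 higher in EID and 1, Cldn5 (at 6.18 normalized counts or fewer), lower. Over all genes tested the groups were separate in 32.6%, and higher in EID in 16.7%. Emcn was at 293, 41.5 and 240 in WT and 817 and 1439 in EID, and Cdh5, which encodes VE-cadherin, at 281, 59.4 and 297 in WT and 727 and 1001 in EID. With limma 0 of the 12 passed and 9 had an unadjusted p under 0.05, while edgeR called 1 and DESeq2 5 of them higher. Over all genes tested, in both directions, limma called 2.23%, edgeR 2.25% and DESeq2 5.56%, and 15.2% had an unadjusted limma p under 0.05. Of the 2 EID cultures, EID 2 held the higher sum and the higher Scarb2, and EID 1 the higher Ctsl and Laptm4b. Schwann cell markers summed to 16193 to 17092 in WT and to 16065 and 15621 in EID, nearly all of it Erbb3, while Ngfr was at 34.8 to 295 in WT and at 344 and 201 in EID. The bead selection is meant to remove these cells as well, and their part in the results was not tested.

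The 5 genes nearest to Ctsl were sought by profile, with no regard to function, as the smallest root mean square difference between centred log2 values over the 5 samples. Genes averaging under 100 normalized counts were left aside. The 5 were B330016D10Rik (0.08), Tgm2 (0.09), Adamtsl4 (0.10), Kcnj11 (0.12) and Bbs12 (0.12). Tgm2, which encodes a protein cross-linking transglutaminase, was at 1418, 1570 and 1653 in WT and 2619 and 2141 in EID. Laptm4b was ninth of the 11222 genes ranked and Scarb2 was at rank 207. As the likeness was measured over the same samples in which Ctsl was chosen, it is a description of these 5 cultures.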

How the data were processed

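Poly-A RNA of 5 cultures was sequenced in stranded paired-end libraries. Per the labels and the study's methods, the authors aligned untrimmed reads to GRCm38 with STAR 2.5.1b, counted uniquely mapped reads per gene by strand with featureCounts 1.4.6 and divided the counts by DESeq2 1.34.0 size factors; FastQC 0.11.5 was also named. The deposited signal is therefore a normalized count. Reads were recovered by dividing each column by its smallest positive value (100% whole within 0.01). The limit of 3 reads covers counting error only.

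Gene symbols came from GENCODE M21 (54165 of 54232 identifiers matched, and all 242 listed genes). Genes that reached 5 normalized counts in any sample (1 or more) were tested with limma 3.58.1 (R 4.3.3; trend, two-sided, Benjamini-Hochberg, threshold 0.05) on log2(value + 1), which understates changes of low genes. edgeR 4.0.16 and DESeq2 1.42.0 were run on the recovered reads. The fits were tested on simulated data. The authors' read counting leaves shared reads of near-identical copies uncounted; apart from transcripts of genes that overlap a member, the longest matches found with blastn 2.17.0 were Gm14032 for Ctsb (87.3% over 1027 bases) and Gm5398 for Ctsh (87.7% over 576 bases), both at 0.

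The members and gene lists were chosen with earlier results of these data known. All members were named, with each role list's called genes or its 2 most abundant, each marker list's 2 most abundant genes and those at 0, and the 5 genes most like Ctsl. Tfeb, Tfe3, Mitf, Manba, Arsb, Cstb and the further marker genes were named outside this rule, after their values were seen. The replicates of a genotype differed by more than sampling noise (chi-square per degree of freedom 24.2 to 34.4). Alternatives were other pseudocounts (0.5 and 5), no filter, a mean of at least 10, other scalings, other tools, a replicate block and leaving out each sample.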

Additional observations from a re-analysis of the deposited data

How the results depend on the processing

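The number of members other than Ctsl that passed was 0 under all 16 alternatives. The count over all genes, 404, was 155 with no filter on low values, 961 with DESeq2, 144 without the limma trend and 34 to 335 when 1 sample was left out. The 2 other lysosomal genes became 0 with no filter, 5 with DESeq2, 0 without the trend and 0 to 2 when 1 sample was left out. The cause was not tested. Where 1 EID sample was left, it was assumed to vary like WT.

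A replicate block in the fit left 224 genes and 0 other lysosomal genes past the threshold (adjusted p 0.0676 for Scarb2 and 0.0618 for Laptm4b). The labels do not say whether equal numbers mark paired cultures. The correlation of the differences between replicates 1 and 2 in WT and EID was -0.20 over 15107 genes. It rests on a single difference per genotype and cannot settle whether the cultures were paired. A crossed block, chosen after seeing the data, gave 1041 and 4. The block changed no call among the members. Leaving out 1 sample turned the sign of the log2 difference for Ctsb (-0.13 to 0.02), Ctsc (-0.34 to 0.25), Ctsd (-0.04 to 0.09), Ctsh (-0.57 to 0.01), Ctsk (-0.24 to 1.47) and Ctss (-1.44 to 2.44), none of which passed. Depth limits Ctss, at 30 reads or fewer.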
